A study of Homo sapiens with 12 samples.

Results

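A set of 10 genes of the integrated stress response, the transcription factor *ATF4* and its best known targets, were followed across HEK293 cells that expressed different forms of PEG10. The members were chosen by name, with earlier results of these data known. They were *ATF4*, *ATF3*, *DDIT3*, *DDIT4*, *ASNS*, *TRIB3*, *CHAC1*, *SESN2*, *PSAT1* and *PHGDH*, which make up 10 of the 26485 genes in the count table. All 10 passed the filter on low counts, as did 17176 genes in total. HEK293 is an established human embryonic kidney line, here of WT genotype, and PEG10 is a domesticated retrotransposon gene whose mRNA is read either as gag or, through a ribosomal frameshift, as gag-pol. Cells were transfected with a plasmid for PEG10 gag-pol, for PEG10 gag, for the nucleocapsid fragment alone (NC), or for LifeAct-Dendra2, a fluorescent actin marker that served as the control. Each construct had 3 replicates from separate passages of the line, giving 12 libraries of poly(A) RNA. Transgenes were driven from a CMV promoter in transiently transfected cultures, so that each library mixed cells that took up different amounts of plasmid. Endogenous PEG10 was present in every group, the control included.

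In the integrated stress response, kinases that sense misfolded protein, double-stranded RNA, amino acid shortage or haem shortage phosphorylate the initiation factor eIF2. Bulk protein synthesis then falls, whereas upstream reading frames in the *ATF4* mRNA allow more ATF4 protein to be made from it, so ATF4 output can change with little change in its transcript. ATF4 pairs with C/EBP proteins on composite C/EBP-ATF elements and drives genes for amino acid synthesis and import, for redox balance and, when stress persists, for growth arrest and cell death.

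The element is written TGATGNAA, where N is any base, or TTNCATCA on the opposite strand. It was searched on both strands in promoter windows of RefSeq (GRCh38.p14) that reach from 250 bases before to 50 bases after each start. All 10 members had at least 1 window, 16 in all, and 3 members held a match, against 3.62% of the 35116 windows and 4.46% of the 27305 gene symbols in the same table. A match is a description of letters and not a mapped binding site, and no match says only that these letters are not in the window. The 60 bases around each match are shown 5′ to 3′ on the strand of the gene, with the match in capitals. Whether ATF4 acts through these stretches was not tested. The 60-base stretches lie at chr7:97872443-97872502 on the minus strand for *ASNS*, chr1:212565190-212565249 on the plus strand for *ATF3* and chr15:40953236-40953295 on the plus strand for *CHAC1*.
ASNS: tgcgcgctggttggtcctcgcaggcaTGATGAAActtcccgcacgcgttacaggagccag
ATF3: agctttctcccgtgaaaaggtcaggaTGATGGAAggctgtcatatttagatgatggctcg
CHAC1: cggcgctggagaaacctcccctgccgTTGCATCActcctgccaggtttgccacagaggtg
The matches began 68 bases upstream of the start in *ASNS*, 191 in *ATF3* and 209 in *CHAC1*, and that of *CHAC1* was on the strand opposite to the gene. These 3 genes did not share 1 pattern over the constructs, as the values below show: *ASNS* was highest with NC, and *ATF3* and *CHAC1* were highest with gag.

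Library totals ran from 30625725 to 45316749 counts, and the members together took 0.220% to 0.301% of them, with no member under 355 counts in any library. *PEG10*, whose transgene and endogenous reads the table counts together, took at most 0.0346% of a control library but 0.238% to 0.389% of an NC library, 2.80% to 7.35% of a gag-pol library and 3.78% to 6.10% of a gag library. All 8 HEK293 markers had at least 10 counts in every library. The summed normalized counts of 8 markers of other cell types ranged over 108 to 459 in control, 41.0 to 131 in NC, 51.7 to 85.1 in gag-pol and 57.8 to 244 in gag libraries (*COL3A1*, the highest, reached 350 raw counts), and their part in the results was not tested. Levels are given as normalized counts, meaning counts per TMM-adjusted library rescaled to the average total of 37579187. Tests were edgeR quasi-likelihood tests with construct and replicate number as terms, and a gene was called when its Benjamini-Hochberg adjusted p over all genes tested was under 0.05. Without the replicate number as a term no member was called between any constructs. In that fit only 2 of all genes tested were called in each comparison with control. Fold changes are given on the log2 scale with their standard errors (SE). Overlap between groups is stated for single genes as a description, since its share over all genes tested was not counted. Shares of members called are likewise a description beside those of all genes, because the members were chosen knowing earlier results. All genes tested also include genes with lower counts than any member. The p-values measure the spread left between libraries of 1 cell line once construct and replicate number are fitted, not the whole spread between passages. In these bulk libraries fewer responding cells and less RNA per cell cannot be told apart.

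**Figure D1:**
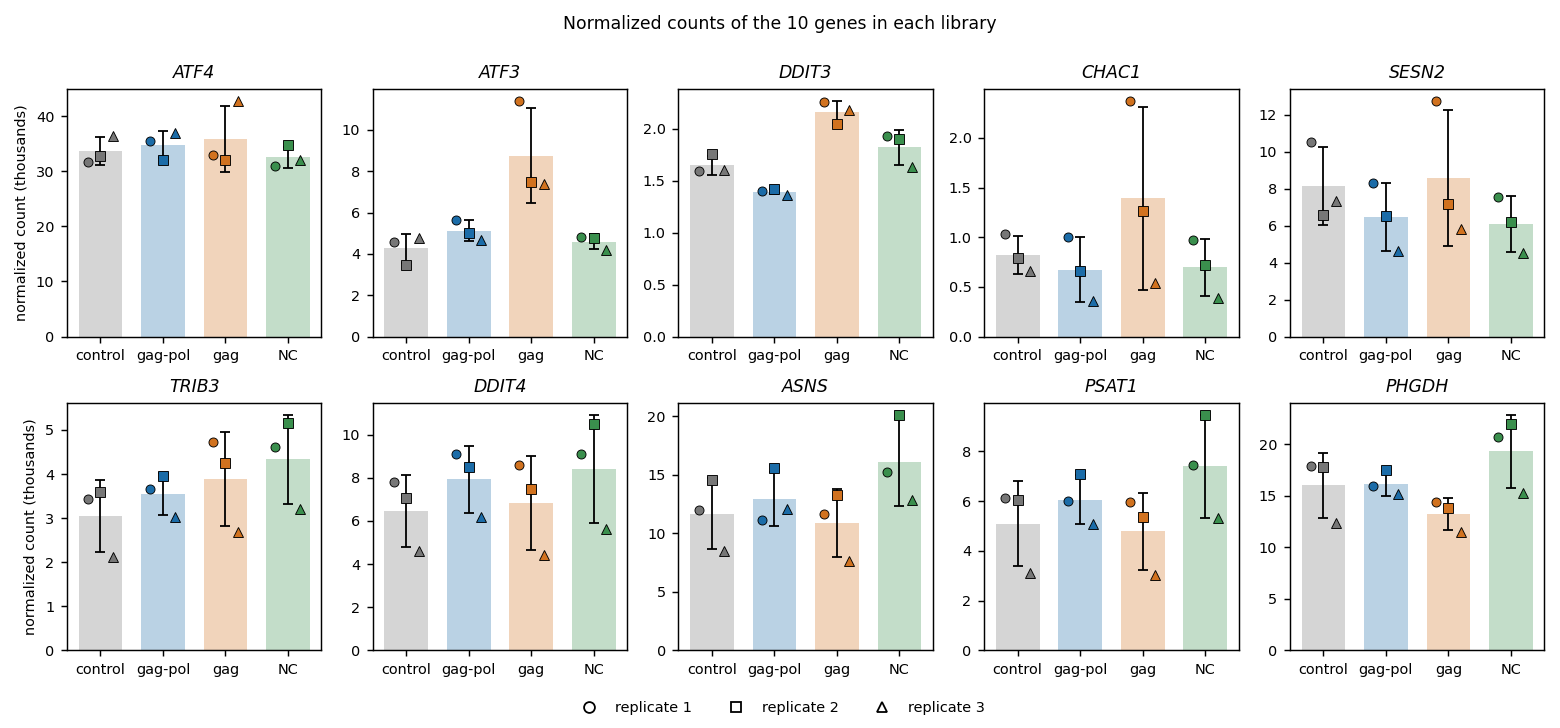
Normalized count of each of the 10 members in all 12 libraries by construct, 1 panel a gene, each with its own axis starting at 0. Symbols are libraries marked by replicate number, bars are group means and error bars the SD (n = 3). *ATF4* was level across constructs, *ATF3* stood highest in the 3 gag libraries, and *ASNS*, *PSAT1* and *PHGDH* had their highest means with NC.

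*ATF4*, the factor that gives the response its name, was not called in any comparison between constructs. It lies on chromosome 22 (39519695 to 39522683, plus strand) and stood at 31619, 32738 and 36476 normalized counts in control libraries 1, 2 and 3. With gag-pol it was counted at 35474, 32081 and 36933, with gag at 32929, 32009 and 42774, and with NC at 30920.2, 34705 and 31973. All 4 groups overlapped, and the single high value was gag library 3. Against control the log2 difference was 0.05 with gag-pol (95% interval -0.13 to 0.24), 0.09 with gag (-0.09 to 0.27) and -0.04 with NC (-0.23 to 0.14). Transcript counts do not measure ATF4 protein, whose synthesis is controlled at translation. *ATF4* has 4 annotated pseudogene copies, none of them in the table, and reads that the copies share with it could be counted for either or dropped.

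*ATF3*, a stress-induced bZIP repressor that ATF4 activates, was higher with gag than in control, and it was the member with the largest called fold change against control. Its locus is on chromosome 1 (212565334 to 212620777, plus strand). The gag libraries stood at 11404, 7475 and 7369 normalized counts, against 4579, 3445 and 4764 in control. Gag-pol libraries had 5658, 5024 and 4684, and NC libraries had 4832, 4758 and 4194. The 3 gag libraries lay above all 9 others, and the other groups overlapped each other. The mean rose from 4263 ± 714 in control to 8749 ± 2300 with gag (SD, n = 3), a 2.03-fold difference (log2 1.02, SE 0.12, edgeR adjusted p = 0.00077, higher in 3 of 3 replicates). The call held in each of the 12 fits that left out a single library, with an adjusted p of at most 0.010. With gag-pol the log2 difference from control was 0.27 (edgeR adjusted p = 0.18) and with NC it was 0.11 (edgeR adjusted p = 0.60), and neither passed the test. Without control library 3, which had the highest *ATF3* of its group, the gag-pol difference passed (log2 0.44, edgeR adjusted p = 0.018).

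*DDIT3*, which encodes the pro-apoptotic factor CHOP, was the other member called with gag. It lies on chromosome 12 (57516588 to 57521737, minus strand) and overlaps *MBD6* on the opposite strand by 58 bases, where reads could not be assigned without strand information. Control libraries had 1590.2, 1753 and 1605 normalized counts, gag libraries 2259.5, 2049 and 2177, gag-pol libraries 1399.9, 1417.5 and 1366, and NC libraries 1933, 1905 and 1627. The gag libraries were above those of every other construct and the gag-pol libraries below all others. Against control *DDIT3* rose by a log2 difference of 0.39 with gag (SE 0.09, edgeR adjusted p = 0.023, 3 of 3 replicates), from a mean of 1650 ± 90.2 to 2162 ± 106 (SD, n = 3). This call was lost without control library 1 (adjusted p = 0.26), control library 2 (0.075), gag library 1 (0.26) or gag library 3 (0.10) in the edgeR fit. With gag-pol the difference was -0.24 (edgeR adjusted p = 0.069), although the groups did not overlap, and DESeq2 (adjusted p = 0.045), upper-quartile factors (0.043) and a filter of at least 10 counts in every library (0.048) each called it lower.

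In all, 2 of the 10 members were called with gag against control, both higher, where 0.699% of all genes tested were called higher and 1.08% in either direction. Of the other 8, *TRIB3* had a log2 difference of 0.35 (edgeR adjusted p = 0.054), *CHAC1* of 0.56 (0.24) and *PHGDH* of -0.26 (0.14). *TRIB3* lay close to the threshold, since DESeq2 (adjusted p = 0.022), no filter (0.0072), the 6 libraries of the pair alone (0.017), leaving out gag-pol library 3 (0.013) and leaving out NC library 2 (0.036) each called it higher. *CHAC1* was called higher without control library 3 (log2 0.85, edgeR adjusted p = 0.0021) or without gag library 3 (log2 0.80, edgeR adjusted p = 0.021), and *PHGDH* was called lower without control library 3 (log2 -0.34, edgeR adjusted p = 0.037). The comparison with control therefore held 4 calls without control library 3, and 1 without control library 1, control library 2 or gag library 1. The calls over all genes tested moved too, from 186 in the main fit to 426 without control library 3. They numbered 35, 59 and 33 without control library 1, control library 2 and gag library 1.

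*CHAC1*, an enzyme that breaks down glutathione, varied more from library to library than any other member. Its locus is on chromosome 15 (40952962 to 40956512, plus strand). Its normalized counts were 1032, 787 and 655 in control, 1006, 659 and 359 with gag-pol, 2372, 1261 and 543 with gag, and 971, 723 and 391 in NC libraries. The highest library exceeded the lowest 6.62-fold, and within each construct library 1 was the highest and library 3 the lowest. The gag group reached above all others and also into their range, with a mean of 1392 ± 921 against 825 ± 191 in control (SD, n = 3). No construct was called against control for *CHAC1*, with log2 differences of -0.40 for gag-pol (SE 0.20) and -0.33 for NC (SE 0.20).

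*SESN2*, a sestrin that restrains mTORC1 when leucine is short, followed the same order of libraries with gag-pol, gag and NC. It lies on chromosome 1 (28259518 to 28282491, plus strand) and had 10557, 6580.4 and 7318 normalized counts in control, 8289.9, 6500.2 and 4619 with gag-pol, 12758, 7156 and 5797 with gag, and 7561, 6217 and 4512 in NC libraries. The groups overlapped. Once the replicate number was a term in the fit, *SESN2* was lower with NC than in control (log2 -0.43, SE 0.12, edgeR adjusted p = 0.033, lower in 3 of 3 replicates). The NC call was lost without control library 3 (log2 -0.26, adjusted p = 0.17), NC library 1 (0.13) or NC library 3 (0.11) in the edgeR fit. With gag-pol the difference was -0.35 (edgeR adjusted p = 0.070), and *SESN2* was called lower by DESeq2 (adjusted p = 0.022) and without control library 2 (0.017), gag-pol library 2 (0.042), gag library 1 (0.029) or NC library 2 (0.041).

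In the main fit the nucleocapsid fragment gave the most member calls against control, 6 of 10, where 11.2% of all genes were called in either direction. Of the 6, 5 were higher (6.04% of all genes tested) and 1, *SESN2*, was lower (5.15%). The 5 that rose were the 3 amino acid synthesis enzymes *ASNS*, *PSAT1* and *PHGDH*, the pseudokinase *TRIB3* and the mTORC1 inhibitor *DDIT4*. Without control library 3 this order of constructs changed. NC then gave 2 member calls (367 of all genes tested) and gag gave 4 (426). The median log2 difference of the 10 members with NC was 0.21, against 0.004 over all genes tested. The 3 comparisons with control share the same 3 control libraries and are therefore not independent of each other.

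*ASNS*, which makes asparagine from aspartate and glutamine, rose with NC by a log2 difference of 0.47 (SE 0.10, edgeR adjusted p = 0.0069, 3 of 3 replicates). Its locus is on chromosome 7 (97851677 to 97872542, minus strand). NC libraries stood at 15206, 20117 and 12825 normalized counts, against 11996, 14530.0 and 8498 in control, 11134, 15532 and 12097 with gag-pol and 11652, 13271 and 7619.9 with gag. The NC range overlapped the control range, but each NC library was above the control library of the same number. The call was lost without control library 3 (edgeR adjusted p = 0.074). Both *ASNS* and *PSAT1* have 4 annotated pseudogene copies that are not in the table.

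*PSAT1*, the aminotransferase of the serine pathway, rose with NC by 0.56 (SE 0.12, edgeR adjusted p = 0.010, 3 of 3 replicates), a 1.48-fold difference. It lies on chromosome 9 (78297125 to 78330093, plus strand) and had 7462, 9444 and 5303 normalized counts with NC, 6131, 6049 and 3116 in control, 6006, 7086 and 5099 with gag-pol and 5966, 5375 and 3025 with gag. In the control and gag groups library 3 lay far below libraries 1 and 2. The call was lost without control library 3 (edgeR adjusted p = 0.098) or NC library 3 (0.052). With gag-pol the difference from control was 0.31 (edgeR adjusted p = 0.11), and it was called without gag-pol library 1 (log2 0.44, adjusted p = 0.038).

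*PHGDH*, the first enzyme of serine synthesis, differed least of the NC calls (log2 0.27, SE 0.08, edgeR adjusted p = 0.037, 3 of 3 replicates). Its locus is on chromosome 1 (119648411 to 119744218, plus strand). NC libraries had 20698, 21955 and 15269.7 normalized counts, control libraries 17914.5, 17762 and 12351, gag-pol libraries 15923, 17467.5 and 15149, and gag libraries 14391, 13850.0 and 11458. The lowest NC library lay inside the control range. The call was lost without any 1 of control libraries 2 and 3, gag library 1 and NC libraries 1, 2 and 3, with adjusted p between 0.054 and 0.22 in the edgeR fit.

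*TRIB3*, a pseudokinase that is induced by ATF4 and CHOP and restrains them in turn, had the only NC call against control that held without each single library. It lies on chromosome 20 (362835 to 397559, plus strand) and stood at 4622, 5169 and 3199.8 normalized counts with NC, at 3428, 3603 and 2109 in control, at 3652, 3955 and 3028 with gag-pol and at 4738, 4248 and 2689.9 with gag. In every construct library 3 was the lowest. The log2 difference of NC from control was 0.52 (SE 0.09, edgeR adjusted p = 0.0017, 3 of 3 replicates), a 1.43-fold rise, and the adjusted p was at most 0.016 in the 12 fits that left out a single library. With gag-pol the difference was 0.25 (edgeR adjusted p = 0.069), called only when no filter on counts was applied (adjusted p = 0.034).

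*DDIT4*, which encodes the mTORC1 inhibitor REDD1, was higher than in control with gag-pol and with NC. Its locus is on chromosome 10 (72273919 to 72276036, plus strand). Its normalized counts were 7778, 7057 and 4596 in control, 9119.8, 8511 and 6181 with gag-pol, 8581, 7478 and 4405 with gag, and 9085, 10506 and 5617 in NC libraries. Library 3 was lowest in each group, so the ranges overlapped although all 3 libraries of gag-pol and of NC exceeded the control library of the same number. The log2 difference was 0.31 with gag-pol (SE 0.09, edgeR adjusted p = 0.021) and 0.37 with NC (SE 0.09, edgeR adjusted p = 0.0096), and with gag it was 0.06 (95% interval -0.12 to 0.24). The gag-pol call was lost without control library 2 (edgeR adjusted p = 0.097), control library 3 (0.061), gag-pol library 1 (0.050) or gag-pol library 3 (0.17), and the NC call without control library 2 (0.056) or NC library 2 (0.063).

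*DDIT4* was the only member called with gag-pol against control in the main fit, 1 of 10, where 5.48% of all genes tested were called higher, 5.83% lower and 11.3% in either direction, so the members' share was close to that of all genes. Gag-pol left 9 members uncalled, and 6 of the 10 had an unadjusted p under 0.05. The count was 0 without gag-pol library 3 and 2 without gag-pol library 2, gag library 1 or NC library 2. Over all genes tested 872 were called without gag-pol library 3, against 1942 in the main fit. Without gag-pol library 2, gag library 1 and NC library 2 there were 1633, 1667 and 2445.

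**Figure D2:**
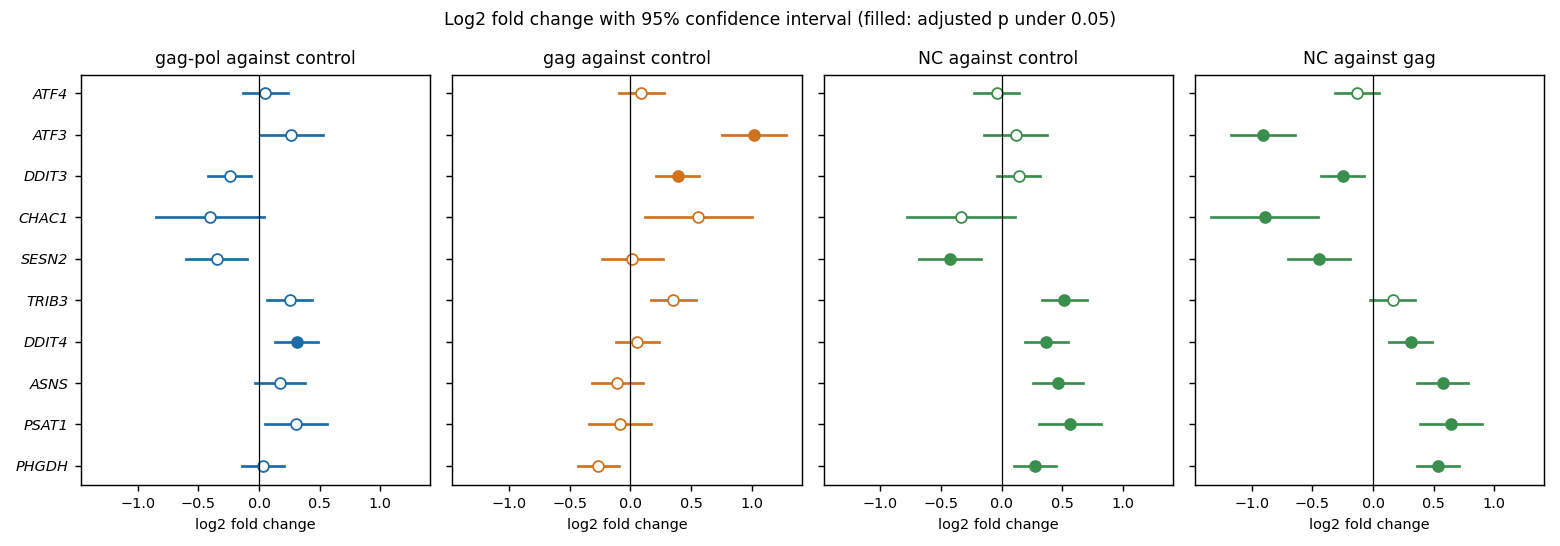
Log2 fold change of each member (points) with its 95% interval (lines) for gag-pol, gag and NC against control and for NC against gag, filled where the edgeR adjusted p was under 0.05. *ATF3* with gag (1.02) lies farthest from 0 among the comparisons with control, the NC values of *TRIB3*, *ASNS* and *PSAT1* lie between 0.47 and 0.56, and every *ATF4* interval includes 0.

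The direct comparison of NC with gag set the free fragment against the protein that contains it. *PEG10* reads differed as well, at 0.238% to 0.389% of NC libraries and 3.78% to 6.10% of gag libraries. The form of the transgene and its amount cannot be told apart here. The comparison of NC with gag gave 8 member calls of 10, where 16.9% of all genes tested were called. Higher with NC were *PSAT1* (log2 0.65, SE 0.12, edgeR adjusted p = 0.0034), *ASNS* (0.57, SE 0.10, 0.0012), *PHGDH* (0.54, SE 0.08, 0.00051) and *DDIT4* (0.31, SE 0.09, 0.016), with 8.76% of all genes in this direction. Lower with NC were *ATF3* (-0.91, SE 0.12, edgeR adjusted p = 0.00067), *CHAC1* (-0.89, SE 0.20, 0.013), *SESN2* (-0.44, SE 0.12, 0.020) and *DDIT3* (-0.25, SE 0.09, 0.047), with 8.12% of all genes. The synthesis enzymes and *DDIT4* thus lay on 1 side of gag, and *ATF3*, *CHAC1*, *SESN2* and *DDIT3* on the other, in 3 of 3 replicates each. *ATF3*, *DDIT3* and *PHGDH* did not overlap between the groups, and how many of all genes tested did not was not counted.

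The NC and gag calls of *ATF3*, *ASNS*, *PSAT1* and *PHGDH* held in all 12 fits without a single library. *CHAC1* was lost without NC library 1 (edgeR adjusted p = 0.069), *SESN2* without gag library 1 (0.12), NC library 1 (0.10) or NC library 3 (0.068), and *DDIT4* without gag library 2 (0.076), gag library 3 (0.10) or NC library 2 (log2 0.20, 0.13). *DDIT3* stood at the threshold and was lost without any 1 of control libraries 1 and 2, gag-pol libraries 1 and 2, gag libraries 1 and 3 or NC libraries 1, 2 and 3, with adjusted p between 0.060 and 0.25. Neither *ATF4* (log2 -0.13, 95% interval -0.32 to 0.05) nor *TRIB3* (0.16, -0.02 to 0.35) was called.

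Gag-pol differs from gag by the pol reading frame, which holds a retroviral-type protease. Between them 4 members were called, where 6.46% of all genes tested were. *DDIT3* was lower with gag-pol (log2 -0.63, SE 0.09, edgeR adjusted p = 0.00047), as were *ATF3* (-0.75, SE 0.12, 0.0051) and *CHAC1* (-0.96, SE 0.20, 0.019), with 3.42% of all genes lower. *PHGDH* was higher (0.30, SE 0.08, edgeR adjusted p = 0.034), with 3.03% of all genes higher. Gag-pol and gag did not overlap for *DDIT3*, *ATF3* or *PHGDH*, again with no count over all genes tested. *DDIT3* was called in all 12 fits without a single library, and *ATF3* was lost without gag-pol library 3 (edgeR adjusted p = 0.073). *CHAC1* was lost without any 1 of the 3 gag-pol libraries or gag libraries 1 and 2 (adjusted p 0.061 to 0.19), and *PHGDH* without gag-pol libraries 2 or 3, any gag library or NC library 1 (0.052 to 0.32; log2 0.19 without gag-pol library 3). *PSAT1* (log2 0.39, edgeR adjusted p = 0.067), *SESN2* (-0.37, 0.078), *DDIT4* (0.25, 0.075) and *ASNS* (0.28, 0.092) lay above the threshold, and each was called under some of the other settings.

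Between NC and gag-pol no member was called by edgeR, 4 had an unadjusted p under 0.05, and DESeq2 called 1, *DDIT3*. Of all genes tested 0.0873% were called, 0.00582% higher with NC and 0.0815% lower. The largest difference was that of *DDIT3* (log2 0.38, 95% interval 0.21 to 0.56, edgeR adjusted p = 0.060), where the NC libraries lay above all 3 gag-pol libraries. *ASNS* (0.29, 0.08 to 0.50), *TRIB3* (0.26, 0.08 to 0.45), *PSAT1* (0.25, 0.00 to 0.51) and *PHGDH* (0.24, 0.06 to 0.41) were each higher with NC in 3 of 3 replicates. These 4 and *DDIT3* were called without gag-pol library 3, with edgeR adjusted p between 0.0062 and 0.046, and *DDIT3* also without control library 3 (0.042). Of all genes tested, 281 were called without gag-pol library 3 and 63 without control library 3, against 15 in the main fit. A p above the threshold does not show that both constructs act alike on these genes.

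When gag-pol and NC were set together against gag and control, 9 of 10 members were called, where 24.7% of all genes tested were. This comparison was made because the study asked what nucleocapsid does when it is released from gag-pol or expressed alone, and it uses the same libraries as those above. *PSAT1* (log2 0.48), *ASNS* (0.37), *DDIT4* (0.31), *PHGDH* (0.29) and *TRIB3* (0.21) were higher, against 13.1% of all genes. *CHAC1* (-0.65), *SESN2* (-0.40), *ATF3* (-0.32) and *DDIT3* (-0.25) were lower, against 11.6% of all genes, and *ATF4* was not called (-0.04, 95% interval -0.17 to 0.09). Adjusted p ran from 0.00096 for *DDIT4* and *ASNS* to 0.019 for *TRIB3* in the edgeR fit. The *TRIB3* call was lost without control library 3 (0.058), gag-pol library 3 (0.086), gag library 2 (0.061) or gag library 3 (0.072). Those of *ATF3* (0.080) and *CHAC1* (0.058) were lost without gag-pol library 3. Members called lower here were below gag and control averaged, not necessarily below control. Against control *ATF3* differed by log2 1.02 for gag, 0.27 for gag-pol and 0.11 for NC. *DDIT3* differed by 0.39, -0.24 and 0.14 in that order, *CHAC1* by 0.56, -0.40 and -0.33, and *SESN2* by 0.02, -0.35 and -0.43. Of these, gag was called for *ATF3* and *DDIT3* and NC for *SESN2*.

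The members also varied with the replicate number, which stands for the passage. An edgeR test of any difference between the 3 numbers called 8 of 10, all but *ATF4* (adjusted p = 0.092) and *DDIT3* (0.54), where 52.8% of all genes tested were called. Replicate 3 had less of 7 members than replicate 1 and more of none, against 21.0% of all genes lower and 20.6% higher. The steepest was *CHAC1*, at 487 normalized counts on average in replicate 3 and 1345 in replicate 1 (log2 -1.39, SE 0.18, edgeR adjusted p = 8.5e-05). *SESN2* (-0.81), *DDIT4* (-0.74), *PSAT1* (-0.67), *TRIB3* (-0.58), *PHGDH* (-0.34) and *ASNS* (-0.31) were also lower. *DDIT4*, *TRIB3*, *CHAC1*, *SESN2*, *PSAT1* and *PHGDH* were lower in all 4 constructs, and *ASNS* in all but gag-pol.

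Replicate 3 against replicate 2 gave 6 lower members (14.1% of all genes), *DDIT4*, *ASNS*, *TRIB3*, *CHAC1*, *PSAT1* and *PHGDH*, and none higher (12.9%). Replicate 2 against replicate 1 gave a different set, with *ASNS* higher (log2 0.33, edgeR adjusted p = 0.0065; 15.9% of all genes higher) and *SESN2* (-0.54, 0.0014), *CHAC1* (-0.60, 0.021) and *ATF3* (-0.30, 0.042) lower (14.7%). *PSAT1*, *PHGDH*, *DDIT4* and *TRIB3* were called in both comparisons with replicate 3 and not between replicates 1 and 2, while *ASNS* and *CHAC1* were called in all 3. What distinguished the passages beyond their number was not tested. Without replicate 3 the numbers differed in 4 members and in 6184 of all genes tested.

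**Figure D3:**
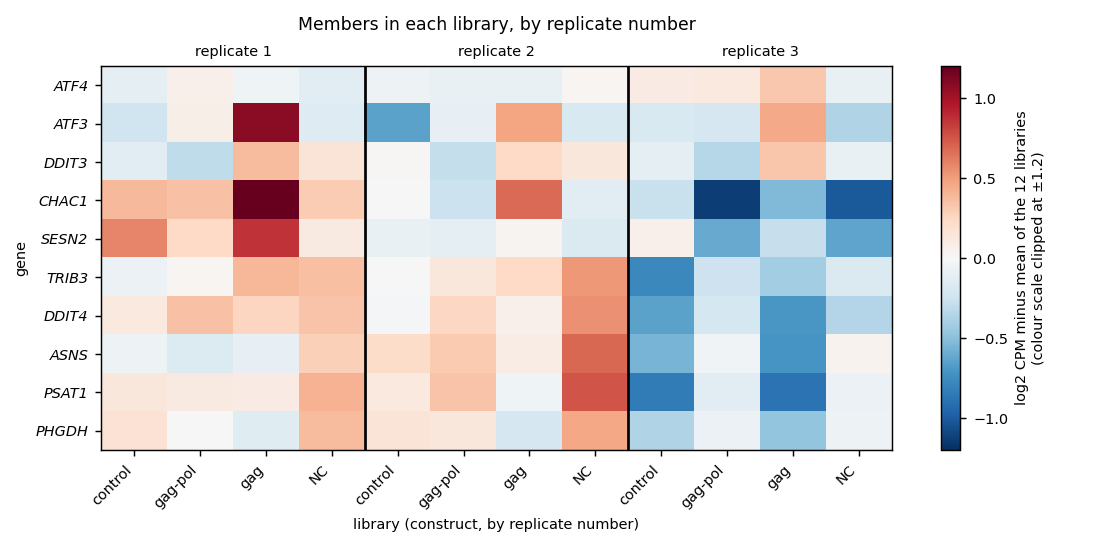
Heat map of the 10 members (rows) in the 12 libraries (columns, ordered by replicate number and then construct), coloured by log2 CPM minus the gene's mean over the libraries, red above and blue below it. *DDIT4*, *TRIB3* and *PSAT1* are lowest in replicate 3 within every construct, whereas *ATF4* in replicate 3 lies above replicate 1 in all 4.

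Over the 12 libraries the members fell into groups that moved together, given here as a description since the libraries share constructs and passages. On the log2 CPM scale *ASNS* and *PSAT1* had a Pearson r of 0.94, *DDIT4* and *PSAT1* of 0.93, and *PSAT1* and *PHGDH* of 0.92. *CHAC1* and *SESN2* formed another pair (r = 0.92), while *CHAC1* and *ASNS* had an r of 0.09 and *SESN2* and *ASNS* of -0.08. With construct and replicate number removed, the highest were *ATF3* with *SESN2* (r = 0.99), *TRIB3* with *PSAT1* (0.95) and *ASNS* with *TRIB3* (0.94), on 6 residual degrees of freedom. The member nearest to the mean of the other 9 was *TRIB3* (r = 0.90), followed by *DDIT4* (0.82), and *ATF4* ran opposite to it (-0.58). The 5 genes outside the members whose levels were most like the members' mean profile were *CBY1* (r = 0.96), *RBM43*, *CCDC112*, *ETFB* and *ZFAND1* (each 0.95).

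Levels were compared between genes only per kilobase of annotated exon. That length joins all annotated exons of a gene, from 1307 bases for *DDIT3* to 9187 for *PHGDH*, and can exceed the length of the mRNA present. The order between genes therefore also depends on the annotation. In control cells *ATF4* had 12863 normalized counts per kb, *DDIT4* 3058, *ASNS* 2385, *SESN2* 2355, *PSAT1* 2311, *PHGDH* 1743, *DDIT3* 1262, *ATF3* 1066, *TRIB3* 926 and *CHAC1* 402. The SDs of *DDIT4*, *ASNS*, *SESN2* and *PSAT1* were between 611 and 788 per kb, so the order among these 4 was within their spread, whereas *ATF4* lay clear of all others. *ATF3* reached 2188 ± 575 per kb with gag and so stood near *SESN2*, *ASNS* and *PSAT1* there.

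The pathway around the members was described with 8 lists of 73 genes, all tested. With gag-pol 12 of the 73 were called higher and 7 lower, with gag 3 higher and none lower, and with NC 17 higher and 3 lower, against the shares of all genes tested given above. For gag, 6 lists with 54 genes had no call, with 3 of these genes at an unadjusted p under 0.05 by edgeR and 1 called by DESeq2. Most list calls rested on individual libraries, since 3 of 19 with gag-pol, 0 of 3 with gag and 4 of 20 with NC held in all 12 fits without a single library. Those that held were *NUPR1*, *SLC3A2* and *EIF4EBP1* with gag-pol and *MTHFD2*, *PYCR1*, *EIF4EBP1* and *HSP90B1* with NC. All of the list calls were lost without the replicate number as a term (edgeR adjusted p from 0.54 to 1), where 2 of all genes tested were called in each comparison with control. With the 6 libraries of the pair alone 13 of the 19 gag-pol calls were lost (0.055 to 0.11), *EIF4EBP1* (0.056), *PYCR1* (0.058) and *HSP90B1* (0.074) among them, against 0 of 3 with gag and 1 of 20 with NC (*SLC3A2*, 0.065).

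Of the 4 kinases that phosphorylate eIF2, only *EIF2AK4* (GCN2, the sensor of uncharged tRNA) was called against control, with gag-pol (log2 0.32, SE 0.08, edgeR adjusted p = 0.0078) and with NC (0.31, SE 0.08, 0.013). The gag-pol call was lost without control library 3 (edgeR adjusted p = 0.060), and the NC call without control library 3 (0.10) or NC library 3 (0.057). Normalized counts of *EIF2AK4* averaged 2700 in control, 3362 with gag-pol, 2775 with gag and 3322 in NC libraries. *EIF2AK1* (HRI) had log2 differences from control of -0.06 (gag-pol), -0.15 (gag) and 0.07 (NC), *EIF2AK2* (PKR) of 0.08, 0.09 and 0.08, and *EIF2AK3* (PERK) of 0.18, 0.24 and -0.10 in the same order, none of which passed. Of the 10 subunits of eIF2, eIF2B and the eIF2 phosphatase, 1 was called in the comparisons with control, *EIF2S3* with NC (0.30, edgeR adjusted p = 0.026), and this was lost without control library 2 or 3 or any NC library (0.050 to 0.21; log2 0.19 without control library 3). *PPP1R15A* (GADD34), which recruits the phosphatase that reverses eIF2 phosphorylation, had a log2 difference of 0.71 with gag, where the groups did not overlap, without passing (edgeR adjusted p = 0.083).

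Of 9 partner and related bZIP factors, 2 rose with gag, *JUN* (log2 0.82, SE 0.15, edgeR adjusted p = 0.027) and *CEBPB* (0.48, SE 0.10, 0.013), an ATF4 partner. *JUN* was lost without any 1 of control libraries 1 and 2 or the 3 gag libraries (0.060 to 0.17), and *CEBPB* without control libraries 1 or 2 or gag libraries 1 or 2 (0.062 to 0.25). With gag-pol *CEBPB* (0.31) and *ATF5* (0.31) rose, both lost without control library 2 among others (edgeR adjusted p = 0.097 and 0.21), and the chromatin protein gene *NUPR1* fell (-0.95, SE 0.15, edgeR adjusted p = 0.0014). *ATF5* was also lost with RLE (0.051) or upper-quartile factors (0.066), without *PEG10* in the counts (0.053), with at least 10 counts in every library (0.055) and in the pair alone (0.094). *NUPR1* stood at 560.0, 668 and 535 normalized counts in gag-pol libraries and at 1129, 1154 and 1118 in control, without overlap. With NC *JDP2* (0.55), *ATF5* (0.36) and *CEBPG* (0.30) rose, each lost without control library 2 or 3 among others (adjusted p 0.059 to 0.16).

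Of 10 amino acid synthesis and one-carbon genes outside the members 5 rose and none fell with NC, with a median log2 difference of 0.28, and the largest were *PYCR1*, a proline synthesis enzyme (0.62, SE 0.10, edgeR adjusted p = 0.00085), the mitochondrial folate enzyme *ALDH1L2* (0.55, 0.013) and its pathway neighbour *MTHFD2* (0.45, 0.0043). The *ALDH1L2* call was lost without control library 1 (edgeR adjusted p = 0.059), NC library 1 (0.064) or NC library 3 (0.074). *PYCR1* had 3774, 4214 and 3079 normalized counts with NC against 2413, 3017 and 1847 in control, and the groups did not overlap. With gag none of the 10 was called, 1 had an unadjusted p under 0.05, and the median was -0.13. NC against gag gave 8 of 10 higher. With gag-pol 3 rose, among them *PYCR1* (0.40) and *ALDH18A1* (0.40), and *CTH*, of cysteine synthesis, fell (-0.66, edgeR adjusted p = 0.0096). Each of these 3 was lost without control library 3 (adjusted p 0.051 to 0.089; log2 0.25 for *ALDH18A1*) and without at least 1 gag-pol library (log2 0.24 for *PYCR1* without gag-pol library 3, adjusted p = 0.12).

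Of 9 amino acid transporter genes, *SLC7A5* (LAT1) rose with gag-pol (log2 0.31, edgeR adjusted p = 0.036) and NC (0.43, 0.0079), whereas *SLC3A2* (CD98), the heavy chain that LAT1 needs, fell with gag-pol (-0.84, SE 0.11, 0.00033) and with NC (-0.49, SE 0.11, 0.011). *SLC3A2* had 10019, 7835 and 8266 normalized counts with gag-pol, below all control libraries at 16838, 11666 and 18393. With NC it had 13436, 10248 and 9599, and its call was lost without control library 3 (log2 -0.31, adjusted p = 0.060) or NC library 3 (0.057). The third call with NC was the glycine transporter *SLC6A9* (0.32), lost without control library 2 or 3 or NC library 1 or 3 (0.062 to 0.16). The gag-pol call of *SLC7A5* was lost without control library 3 (0.22), gag-pol library 2 (0.057) or gag-pol library 3 (log2 0.20, 0.25), and the NC call without control library 3 (0.076) or NC library 3 (0.051). None of the 9 was called with gag, and 1 had an unadjusted p under 0.05.

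Among 11 stress, growth and autophagy targets *EIF4EBP1*, a translation repressor regulated by mTORC1, rose with gag-pol (log2 0.49, SE 0.11, edgeR adjusted p = 0.0083) and with NC (0.73, SE 0.11, 0.0012). The gag-pol difference was 0.32 without gag-pol library 3 (edgeR adjusted p = 0.039). The NC libraries of *EIF4EBP1* had 9098.5, 11588 and 7677 normalized counts, all above the control libraries at 6262, 7217 and 3851. The hormone gene *FGF21* fell with gag-pol (-1.03, SE 0.28, edgeR adjusted p = 0.018) from a mean of 121 to 58.2 counts, and the autophagy receptor gene *SQSTM1* also fell (-0.25, 0.041). In all this list had 2 higher and 3 lower with gag-pol, 2 higher and 1 lower with NC, and none called with gag, where none had an unadjusted p under 0.05. With NC *JMJD6* fell (-0.30) and *VEGFA* rose (0.24). The calls of *FGF21*, *SQSTM1*, *JMJD6* and *VEGFA* each depended on individual libraries, control library 3 among them (edgeR adjusted p without it 0.053 to 0.15).

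Neighbouring responses were counted in the same way. Of 10 chaperone genes driven by ATF6 and XBP1, *HSP90B1* (GRP94) rose with gag-pol (log2 0.30, edgeR adjusted p = 0.014) and NC (0.39, 0.0031), and *PDIA4* with NC (0.28, 0.018), which makes 1 and 2 calls, and none with gag, where none had an unadjusted p under 0.05. Of 10 p53 targets the cell cycle inhibitor *CDKN1A* rose with gag (0.55, SE 0.09, edgeR adjusted p = 0.0031), lost without control library 1 (0.052) or gag library 1 (0.085). With gag-pol *PHLDA3* (0.44) and *BBC3* (0.35) rose and *BAX* fell (-0.39), and with NC *PHLDA3* rose (0.42) and *BAX* fell (-0.41). Without control library 3 the calls of *HSP90B1* (edgeR adjusted p = 0.078), *BBC3* (0.060) and *BAX* (0.19) with gag-pol and of *PDIA4* (0.12), *PHLDA3* (0.056) and *BAX* (0.18) with NC were lost, and without gag-pol library 3 that of *PHLDA3* with gag-pol (0.067). *BBC3* moved most without gag-pol library 1, to a log2 difference of 0.19 (edgeR adjusted p = 0.22).

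**Figure D4:**
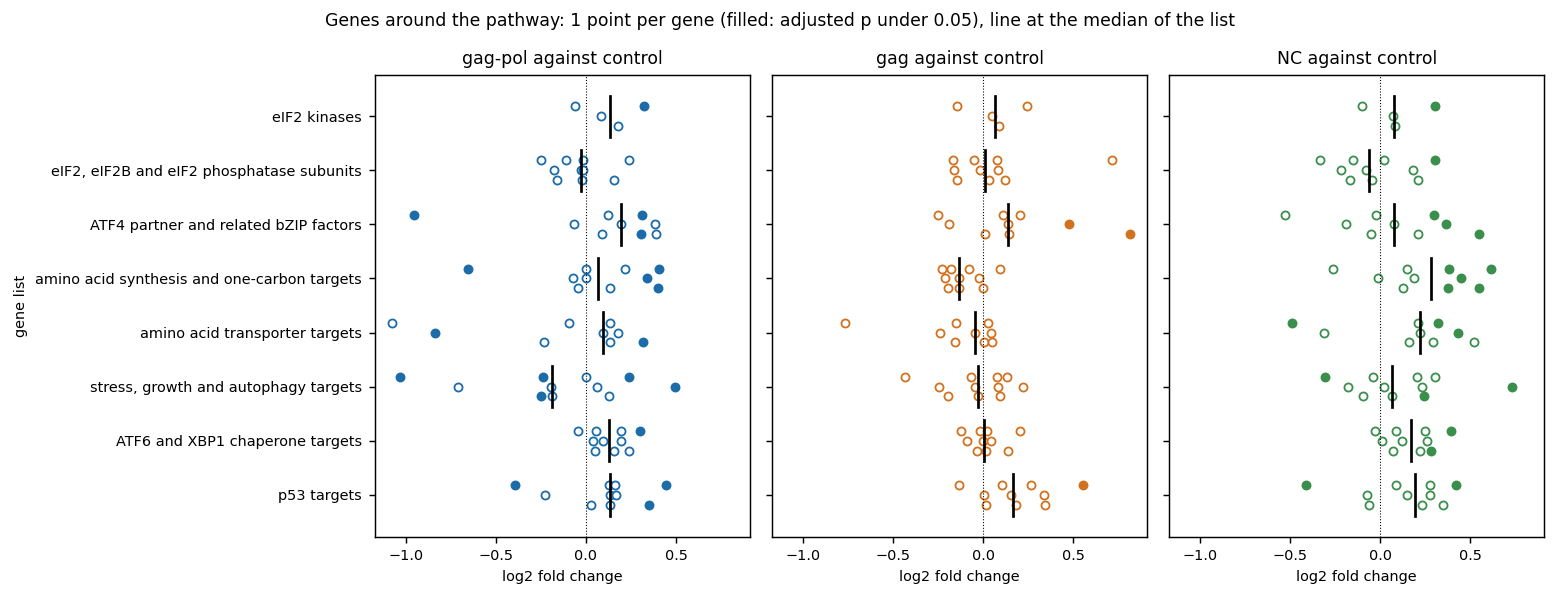
Log2 fold changes against control of the 8 gene lists for the constructs gag-pol, gag and NC, 1 point a gene, filled where the edgeR adjusted p was under 0.05, with the median of each list as a vertical line. The amino acid synthesis list has its highest median with NC (0.28) and its lowest with gag (-0.13).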

How the data were processed

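The authors extracted poly(A) RNA from transfected HEK293 cells, prepared libraries with the Tecan Universal Plus mRNA-Seq kit, aligned paired reads with STAR 2.7.3 to GRCh38.p13, and counted them per gene with featureCounts (SAMtools 1.8 also used), and the deposited values are raw counts per gene. The annotation release, strand setting and treatment of multiply aligned reads are not given in the sources used here. Genes with a count in no library numbered 3535 of 26485.

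Samples were grouped by construct from the labels. The members and gene lists were chosen with earlier results of these data known. Counts were analysed with edgeR 4.0.16 in R 4.3.3 (TMM, filterByExpr with a minimum count of 10 and total of 15, robust quasi-likelihood fit of construct and replicate number over 12 libraries, 6 residual degrees of freedom), with Benjamini-Hochberg adjustment over 17176 genes and a threshold of 0.05. The replicate number was kept because the study's methods use harvest date, and the labels' numbers paired the libraries: deviations from the group means correlated at 0.138 to 0.539 in 18 same-number pairs and at -0.498 to 0.072 in 36 others. Deviations within a group cancel out, so positive values in same-number pairs go with lower ones in the others. The second range is therefore not separate information. The biological coefficient of variation was 10.7%. The script was tested on simulated data. Named genes were all 10 members, *PEG10*, the 4 eIF2 kinases, in each list and each comparison with control the up to 3 called genes with the largest change, and the 5 genes most like the members' mean profile with at least 1 log2 CPM. *PPP1R15A* was named after its values were seen. Alternatives were DESeq2 1.42.0, other size factors, other filters, *PEG10* removed, the 6 libraries of a pair alone, no replicate block, and leaving out libraries or replicate numbers. Positions are from GENCODE release 44, and promoters from RefSeq.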

Additional observations from a re-analysis of the deposited data

How the results depend on the processing

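No member's difference changed direction where it was called. The number of members called depended on the replicate block. With no replicate block, edgeR called 0 members between gag-pol and control, gag and control, NC and control, gag-pol and gag, NC and gag, and gag-pol with NC against gag with control, with 1, 2, 0, 3, 4 and 3 at an unadjusted p under 0.05. Of all genes tested, 2, 2, 2, 0, 1 and 0 were called in the same order, so the loss was not particular to the members. For gag-pol against control (1 in the main fit) the count was 3 with DESeq2 and 2 with upper-quartile factors, with no filter, or with at least 10 counts in every library, and for NC against gag-pol (0) it was 1 with DESeq2 and with no filter. Over all genes these settings called 2436, 1981, 2255 and 2018 for gag-pol against control (1942 in the main fit). For NC against gag-pol they called 124 and 129 (15 in the main fit). Leaving out a library or a replicate number gave 0 to 2 members for gag-pol against control, 1 to 5 for gag against control, 2 to 6 for NC against control, 0 to 6 for gag-pol against gag, 4 to 8 for NC against gag, 0 to 5 for NC against gag-pol, 6 to 9 for gag-pol with NC against gag with control, and 4 to 9 for the replicate number. The 0 for gag-pol against gag and the 4 for NC against gag came from leaving out replicate 1. Over all genes tested 12 and 342 were then called, against 1109 and 2898 in the main fit. The 5 for gag against control came from leaving out replicate 3, where 731 of all genes tested were called, against 186 in the main fit. An end of a range given without the calls over all genes tested is not read as a result about the members. Among single libraries, the count was 2 without control library 3 and 3 without NC library 3 for NC against control, 1 without gag-pol library 3 and 2 without gag library 1 or 2 for gag-pol against gag, and 5 without NC library 1 for NC against gag. The calls over all genes tested fell as well. In the same order they were 367 and 823 (1922 in the main fit), 130, 122 and 473 (1109), and 1354 (2898). The cause was not tested. Groups of 3 replicates and 6 residual degrees of freedom limit what can be called.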
